A study of Mus musculus with 45 samples.

Results

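The genes described here encode the calcium-activated phosphatase calcineurin, its inhibitors and anchors, and the NFAT transcription factors it acts on, and their RNA was measured in mouse heart by sequencing of poly(A) transcripts. They were picked out of the files by symbol: Ppp3ca and Ppp3cb, Rcan1, Rcan2 and Rcan3, Nfatc1 to Nfatc4, and Myoz2. All 10 were found among the 23284 gene symbols of the expression files. Of the 45 samples in the series, the 6 RNA-seq libraries are used, and the other 39, of chromatin or input DNA, were not analysed here. Adult heart has 2 libraries. Embryonic heart at E12.5, E12.5 heart labelled Gata4 KO, heart labelled banding and heart labelled sham have 1 library each. Banding constricts a large artery so that the heart pumps against a higher load, and sham is its mock operation. The vessel, the time after the operation, and the age of the banding and sham animals are not in the labels. For the series as a whole the alleles named are Gata4fbio, Rosa26BirA, cTNTcre and Gata4flox. The labels do not say which of them the animals of each RNA library carried. The Cre allele is named for the cardiac troponin T promoter, which is active in heart muscle cells, so a deletion by it would leave other cells of the heart with Gata4. RNA was pooled before the libraries were made. The labels do not state whether the adult pair came from different animals. A p-value therefore reflects the spread of that pair alone, and this may be technical.

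Calcineurin is a heterodimer of a catalytic A subunit, encoded in heart mainly by Ppp3ca and Ppp3cb, and a calcium-binding B subunit, and it is switched on by calcium and calmodulin. It removes phosphates from the cytoplasmic NFAT factors, which then enter the nucleus, and kinases such as Gsk3b send them out again. The calcipressins, encoded by the Rcan genes, bind the catalytic subunit and restrain it, and the short form of Rcan1 is itself switched on by NFAT from an internal start. Myoz2 encodes calsarcin-1, which tethers calcineurin to alpha-actinin at the Z-disc of the sarcomere. In heart the pathway is known for load-induced growth of muscle cells, and Nfatc1 is known for its role in the endocardium of the forming valves.

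Promoter windows were read for the calcipressin genes because Rcan1 and Rcan2 differ most between the libraries among the Rcan genes, and because Rcan1 has 2 annotated starts. RefSeq windows of 300 bases around annotated transcript starts (GRCm38.p6) were matched by symbol for 8 of the 10 genes. Ppp3ca and Nfatc1 are not among them. The letters GGAAA, the core that NFAT factors recognise, were searched on both strands, and each match, read on the other strand as TTTCC, is in capitals. At the upstream Rcan1 start, chr16:92466120-92466419 on the minus strand, the window holds 0 matches. At the internal Rcan1 start, chr16:92400029-92400328 on the minus strand, it holds 3. At the first Rcan2 start, chr17:43801102-43801401 on the plus strand, it holds 2, and the other Rcan2 windows hold 0. The sequences run 5′ to 3′ on the strand of the gene.
Rcan1 upstream start: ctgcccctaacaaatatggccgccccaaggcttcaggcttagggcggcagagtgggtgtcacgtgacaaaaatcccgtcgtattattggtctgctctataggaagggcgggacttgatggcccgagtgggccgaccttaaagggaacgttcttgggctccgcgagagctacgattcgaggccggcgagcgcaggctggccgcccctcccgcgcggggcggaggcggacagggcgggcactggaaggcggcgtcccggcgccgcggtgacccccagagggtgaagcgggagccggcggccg
Rcan1 internal start: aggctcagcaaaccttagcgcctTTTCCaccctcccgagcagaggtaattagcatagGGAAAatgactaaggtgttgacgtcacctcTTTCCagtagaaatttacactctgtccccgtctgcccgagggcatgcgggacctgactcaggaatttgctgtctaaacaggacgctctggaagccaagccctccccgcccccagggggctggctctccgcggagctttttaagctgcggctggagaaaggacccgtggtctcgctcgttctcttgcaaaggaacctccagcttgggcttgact
Rcan2 first start: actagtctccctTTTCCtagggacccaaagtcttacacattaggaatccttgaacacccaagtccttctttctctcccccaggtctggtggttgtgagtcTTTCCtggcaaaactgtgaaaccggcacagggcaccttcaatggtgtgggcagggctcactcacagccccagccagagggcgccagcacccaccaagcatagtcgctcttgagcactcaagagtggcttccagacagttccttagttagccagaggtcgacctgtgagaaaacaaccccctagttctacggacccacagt
Of all 32851 windows of this length in the table, 61.3% hold at least 1 match, 26.7% at least 2 and 9.42% at least 3. Among the other genes the Ppp3cb window holds 4 matches, the Nfatc4 window 3, the Myoz2 window 2 and the Rcan3 window 1. The Nfatc2 windows hold 3 and 1, and the Nfatc3 windows 1 and 0. The match is a description of letters, and binding of NFAT was not measured in these libraries. The expression files give 1 value per symbol, so reads from the upstream and internal Rcan1 starts are not separated.

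Levels are log2(FPKM + 1), where FPKM is fragments scaled to transcript length and to mapped reads, and differences are on the same log2 scale unless a ratio of FPKM is named. The libraries held 12086929 to 21056784 mapped reads, and the members were covered by 35 to 21246 reads. Heart muscle markers were present in every library, with all 8 of 8 listed markers above 0. The gene named by the knockout label, Gata4, stood at 3.78 and 3.28 in adult, 5.93 at E12.5, 6.13 in its knockout-labelled counterpart, 2.38 in banding and 2.29 in sham. It was therefore not lower in the labelled library, and directions drawn from that library rest on its label. Banding and sham stood apart from the other 4 libraries. They had 58.0% and 55.6% of mapped reads on listed genes against 75.9% to 83.9% elsewhere, which lowers their FPKM of most genes against the other libraries. Unless a scaling is named, orders of the libraries below are on the scale as deposited and can change with scaling. Values of 1 library have no error between replicates. Ratios of FPKM carry 95% intervals from the read counts (exact conditional binomial), which cover counting error only.

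The catalytic subunit Ppp3ca had the narrowest range of the 10 genes on the scale as deposited. It stood at 5.08 and 5.14 in adult, 4.53 in E12.5, 4.72 in the labelled library, 5.35 in banding and 4.98 in sham. Ppp3cb, the beta catalytic subunit, stood at 4.08 and 4.15 in adult, 3.74 in E12.5, 3.73 in the labelled library, and 2.13 in both banding and sham. Ppp3ca thus spanned less than 1 on the log2 scale as deposited, while Ppp3cb was low in both operated hearts. The narrow range of Ppp3ca depended on the scaling. When each library was scaled by its median ratio to the others, adult exceeded E12.5 by 0.96 and sham exceeded adult by 0.53.

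Rcan1, the calcipressin that calcineurin itself induces, ranged widely. It stood at 5.71 and 5.13 in adult, 6.27 in E12.5, 5.88 in the labelled library, 4.69 in banding and 2.64 in sham. Both embryonic libraries lay above both adult ones, and sham lay below every other library. Rcan2, the calcipressin of muscle and brain, had the opposite order by age, with levels of 8.21 and 8.11 in adult against 4.24 in E12.5 and 4.07 in the labelled library. In banding it was at 7.40 and in sham at 6.51, so both operated hearts lay between the embryonic and the adult libraries. Rcan3 was low throughout, at 1.06 and 1.15 in adult, 1.64 in E12.5, 1.77 in the labelled library, 0.58 in banding and 0.99 in sham.

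The NFAT genes lay below both Ppp3ca and Ppp3cb in every library, though close to Ppp3cb in banding and sham. Nfatc3, which is broadly expressed, stood at 2.86 and 2.77 in adult, 3.30 in E12.5, 3.34 in the labelled library, 1.37 in banding and 1.44 in sham. Nfatc1 stood at 2.10 and 2.16 in adult, 2.88 in E12.5, 3.15 in the labelled library, 1.75 in banding and 1.65 in sham. Both were highest in the embryonic libraries and, on the scale as deposited, lowest in the operated hearts. For Nfatc1 the latter depended on scaling: sham minus adult was -0.48 as deposited and 0.01 with median-of-ratios scaling. Nfatc2, best known from T cells, stood at 1.83 and 1.5 in adult, 2.43 in E12.5, 1.59 in the labelled library, 1.85 in banding and 2.04 in sham. Its adult range spanned the labelled library, and E12.5 lay above all others. Nfatc4 stood at 0.77 in both adult libraries, 1.79 in E12.5, 1.84 in the labelled library, 1.33 in banding and 1.08 in sham, so adult was lowest.

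Myoz2 was the most abundant of the 10 genes in every library except banding, where Rcan2 lay above it. Its level was 10.51 and 10.50 in adult, 7.26 in E12.5, 6.97 in the labelled library, 6.71 in banding and 6.61 in sham. The adult libraries lay far above the other 4, which stood close together. In the adult libraries the order below Myoz2 and Rcan2 was Rcan1 and Ppp3ca, then Ppp3cb, Nfatc3, Nfatc1, Nfatc2, Rcan3 and Nfatc4. Rcan1 and Ppp3ca changed places between the adult libraries and did not differ beyond their spread. In E12.5 the second place belonged to Rcan1, ahead of Ppp3ca and Rcan2.

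**Figure D1:**
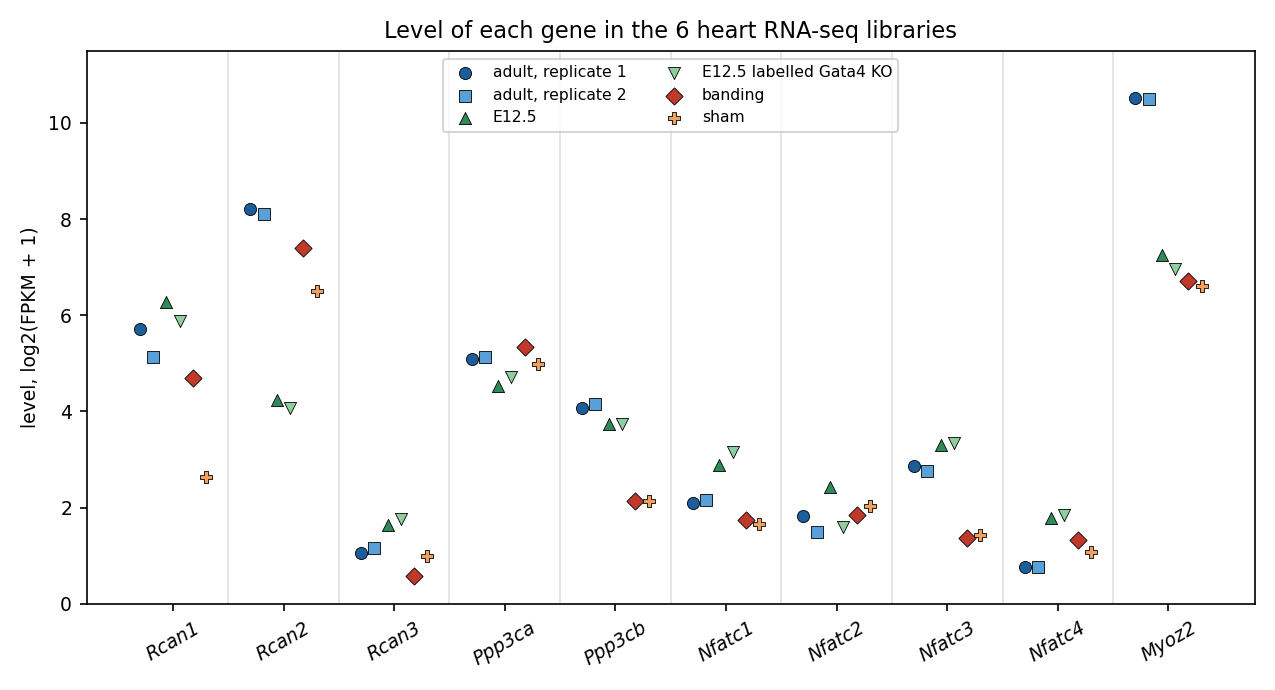
Level of each of the 10 genes in each of the 6 libraries, as log2(FPKM + 1), with the 2 adult libraries drawn separately and no error bars because the other groups have 1 library. Rcan2 and Myoz2 are highest in adult, and Rcan1 is lowest in sham at 2.64.

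Adult heart was compared with E12.5 to ask how the heart changes between these ages. Rcan2, Myoz2 and the catalytic subunits rose, and Rcan3, Nfatc1, Nfatc3 and Nfatc4 fell. By limma, with Benjamini-Hochberg adjustment at 0.05 over 12658 genes, 4 of the 10 genes rose, 4 fell and 2 did not pass. Over all tested genes 23.4% rose and 48.4% fell, so 71.8% were called in either direction. The spread comes from the adult pair alone, and the single E12.5 library is assumed to vary like it. The median difference of the 10 genes was -0.51, the same as over all genes tested.

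Rcan2 rose by 3.93 (SE 0.08, adjusted p = 0.00398), from 4.24 to 8.16 ± 0.07 (SD, n = 2), which is beyond the spread of the adult pair. Myoz2 rose by 3.24 (SE 0.07, adjusted p = 0.00398), from 7.26 to 10.51 ± 0.01 (SD, n = 2). These were also the only members past a rule of size, which asks for a 2-fold difference in FPKM + 1 and 5 FPKM or more in the higher group. Where adult is a side, both must hold for the adult mean and for each adult library. That rule called 15.7% of the 8801 genes measured at that level higher and 37.1% lower, 52.8% in all, and between the adult libraries it called 0.232% higher and 0.248% lower in replicate 1. The rises of the catalytic subunits were smaller. Ppp3ca rose by 0.58 (SE 0.08, adjusted p = 0.0169). Ppp3cb rose by 0.38 (SE 0.09, adjusted p = 0.0471), a call that was lost under 3 alternatives. These were no filter on low values (adjusted p = 0.0555), a fit on all 6 libraries (adjusted p = 0.0578) and scaling to reads on listed genes (0.24, adjusted p = 0.102).

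Among the members that fell, Nfatc4 had the largest difference, at -1.02 (SE 0.07, adjusted p = 0.00692). Nfatc1 fell by 0.75 (SE 0.12, adjusted p = 0.0231), Rcan3 fell by 0.54 (SE 0.10, adjusted p = 0.0274) and Nfatc3 fell by 0.48 (SE 0.12, adjusted p = 0.0491). The last 3 calls depended on the processing. Rcan3 did not pass with a pseudocount of 0.1 FPKM (adjusted p = 0.0533) or without the filter (adjusted p = 0.0573). Nfatc3 did not pass under the same changes (adjusted p = 0.0556 and 0.0616) or in a fit on all 6 libraries (adjusted p = 0.0577). With median-of-ratios scaling, which moved the median over all genes from -0.51 to -0.16, the differences were -0.41 for Nfatc1 (adjusted p = 0.0640), -0.28 for Rcan3 (adjusted p = 0.0835) and -0.13 for Nfatc3 (adjusted p = 0.426). Nfatc2 differed by -0.77 (SE 0.21, adjusted p = 0.0627) and did not pass. It passed at -0.85 when scaled to reads on listed genes (adjusted p = 0.0453).

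Rcan1 differed by -0.86 (SE 0.32, adjusted p = 0.111) and did not pass either. Its adult libraries were themselves far apart, with a 1.5-fold ratio of FPKM between replicate 1 and replicate 2 (95% counting interval 1.39 to 1.63). Only Nfatc2 came near this among the other members, at 1.4 (1.13 to 1.73). Without adult replicate 1 the Rcan1 difference was -1.14 and passed the rule of size, and without replicate 2 it was -0.57.

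**Figure D2:**
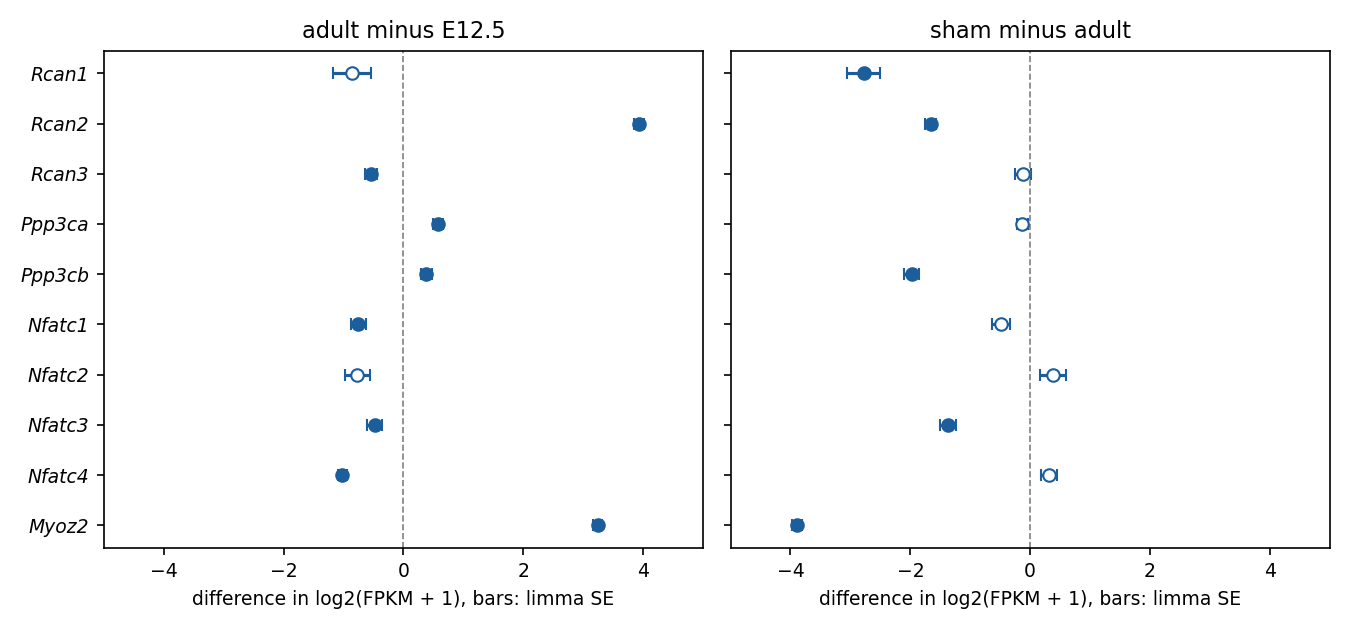
Difference in level of the 10 genes for adult minus E12.5 and for sham minus adult, on the log2(FPKM + 1) scale, with bars of 1 standard error from limma and filled symbols for an adjusted p under 0.05. Rcan2 and Myoz2 rose most from E12.5 to adult, and Myoz2 and Rcan1 fell most from adult to sham.

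The make-up of the calcipressins differed between the ages. In E12.5 Rcan1 gave 79.3% of the summed Rcan FPKM and Rcan2 18.5%, while in the adult libraries Rcan2 gave 84.9% and 88.7%. Within a library, the ratio of Rcan2 to Rcan1 FPKM does not depend on scaling. It was 0.233 in E12.5 (0.219 to 0.249) and 0.271 in the labelled library (0.251 to 0.293), but 5.75 (5.45 to 6.07) and 8.10 (7.59 to 8.66) in adult, 6.74 (6.27 to 7.26) in banding and 17.2 (14.6 to 20.4) in sham. Rcan1 was thus the more abundant calcipressin transcript in both embryonic libraries and Rcan2 in the other 4. Relative to Ppp3ca, Rcan2 stood at 0.809 in E12.5 and at 9.01 and 8.02 in adult, by the ratio of FPKM.

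The ratio of Ppp3ca to Ppp3cb was similar across age, at 2.05 and 2.06 for the adult pair, 1.79 (1.64 to 1.95) for E12.5 and 2.06 for the labelled library. In banding it was 11.8 (10.1 to 13.8) and in sham 9.02 (7.60 to 10.8). Nfatc3 exceeded Nfatc1 in both adult libraries (1.91 and 1.68), at E12.5 (1.39) and in the labelled library (1.16). It lay below Nfatc1 in banding, at 0.668 (0.527 to 0.846), and in sham the interval around 0.808 included 1 (0.626 to 1.04).

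**Figure D3:**
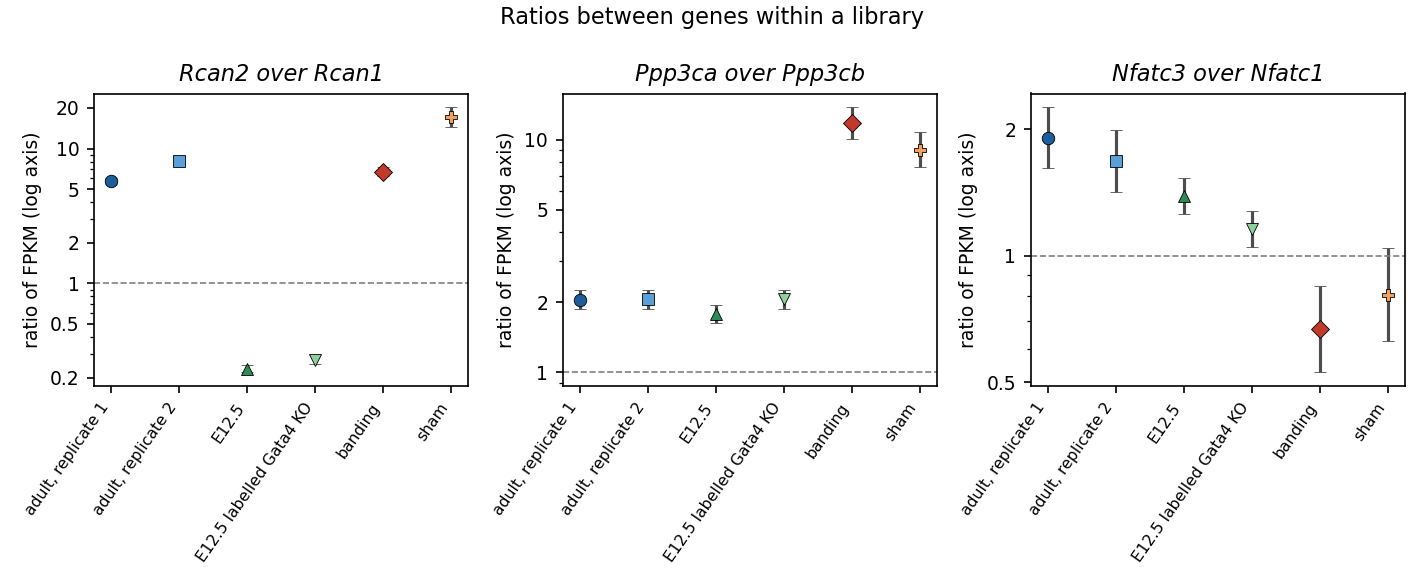
Ratio of FPKM between 2 genes within each of the 6 libraries, on log axes, with 95% intervals from read counts: Rcan2 to Rcan1, Ppp3ca to Ppp3cb and Nfatc3 to Nfatc1. The Rcan2 to Rcan1 ratio is below 1 in both embryonic libraries and above 5 in the other 4, and the Ppp3ca to Ppp3cb ratio is highest in banding and sham.

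Marker sums of several cell types differed between these ages. The summed FPKM of red cell markers was 21255 in E12.5 against 0.521 and 1.31 in adult. Of the E12.5 sum, the embryonic globins Hbb-y and Hba-x gave 13426 and 7036. Hba-a1, the only adult globin listed, was at 0 in every library. The sum therefore cannot compare red cells between the ages. Heart muscle markers summed to 31013 in E12.5 against 48348 and 48426 in adult. Endothelial and endocardial markers summed to 316 in E12.5 and to 352 and 362 in adult, with 5 of 10 higher in adult and 5 lower. Smooth muscle markers summed to 540 against 241 and 257, and fibroblast markers to 156 against 119 and 149. Skeletal muscle markers summed to 195 against 2246 and 1846. These sums mix genes of opposite direction. Acta2 and Cnn1 fell by 1.53 and 4.31 from E12.5 to adult, while Myh11 rose by 5.51 and Smtn by 0.59. Col1a1, Col1a2, Col3a1 and Tcf21 fell by 1.96, 1.75, 1.31 and 3.13, while Dcn and Lum rose by 2.10 and 1.67. Ckm gave 1954 and 1715 FPKM of the adult skeletal muscle sums against 85.2 in E12.5, while Mylpf and Tnnt3 fell by 3.01 and 1.56. T cell markers, of interest for Nfatc2, summed to 1.46 in E12.5, where Cd3d, Cd8a and Cd2 were at 0, and to 0.523 and 0.674 in adult. In bulk tissue, fewer cells of a type and less RNA per cell cannot be told apart, and the part of these markers in the results was not tested.

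Among the other calcineurin subunits and their calcium sensors, subunits rose from E12.5 to adult while Calm2 and Calm3, which encode calmodulin, fell. Ppp3cc, the gamma catalytic subunit, rose by 1.28 (SE 0.13, adjusted p = 0.0105), and the regulatory subunit Ppp3r1 rose by 0.33 (SE 0.08, adjusted p = 0.0487). Calm3 fell by 1.69 and Calm2 by 0.63. The testis subunit Ppp3r2 was listed at 0 in all 6 libraries.

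Of 12 tested anchors and inhibitors 4 rose and 6 fell, against 23.4% and 48.4% over all tested genes. Akap6, which anchors calcineurin at the nuclear envelope of muscle cells, rose by 2.30 (SE 0.08), and the ubiquitin ligase component Fbxo32, which restrains calcineurin in heart, rose by 2.80 (SE 0.12). The other 2 that rose were the anchor Akap5, by 1.20, and Ppia, by 1.81, a gene with many near-identical copies and an uncertain value. Myoz1, the calsarcin of fast skeletal muscle, stood at 3.65 in E12.5 and 3.74 in the labelled library, and neither adult library had a value above 0 for it. Myoz2 gave 92.9% of the summed Myoz FPKM in E12.5 and over 99% in adult. Also lower in adult were Fkbp1b, Cib1, Fkbp1a, Cabin1 and Chp1, by 2.12, 1.98, 1.70, 0.94 and 0.56.

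Of the 12 NFAT kinases 1 rose and 6 fell, with a median of -0.55 against -0.51 over all genes. Dyrk1a rose by 0.39 (SE 0.09, adjusted p = 0.0432). Those that fell were Dyrk2 by 1.74, Dyrk1b by 1.28, Csnk1d by 1.19, Gsk3a by 0.96, Prkaca by 0.95 and Gsk3b by 0.61. Of 10 nuclear partners 6 rose and 2 fell. For both lists the shares over all tested genes were 23.4% risen and 48.4% fallen. The immediate early factors Fos, Jun and Junb rose by 3.34, 1.33 and 1.32, the muscle factors Mef2a and Mef2d by 1.45 and 1.14, and the NFAT relative Nfat5, which calcineurin does not activate, by 0.52. Gata4 and Gata6 fell by 2.40 and 1.87. Of 7 hypertrophy genes Vegfa rose by 1.48, and Nppa, Myh7 and Edn1 fell by 4.78, 2.20 and 0.71. With median-of-ratios scaling Calm2, Chp1, Gsk3b and Edn1 no longer passed, and scaled to reads on listed genes Ppp3r1 and Dyrk1a did not.

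The banded heart was set against sham to see how expression differs under load. Rcan1 was higher in the banded heart, at 24.9 against 5.23 FPKM, a ratio of 4.76 (95% counting interval 3.99 to 5.71). It was the only one of the 4 members measured at 5 FPKM that passed the rule of size, which called 2.51% of 5108 genes higher and 0.998% lower, 3.5% in all. Rcan2 was 1.87-fold higher (1.8 to 1.94), at 168 against 89.8 FPKM, and the catalytic subunit Ppp3ca was 1.30-fold higher (1.19 to 1.43). Each side is a single library, so nothing here was checked in a replicate and there is no p-value.

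The Rcan1 difference rests on 811 reads in banding and 147 in sham. For scale, the adult libraries differed 1.5-fold in Rcan1. On the scale as deposited, Rcan1 in banding (4.69) lay below both adult libraries (5.71 and 5.13). With median-of-ratios scaling, or scaled to reads on listed genes, it lay between the adult libraries. Of all 6 libraries sham was the lowest in Rcan1. The difference was 2.03 to 2.23 on the log2 scale over the 5 alternative settings. Among these, a minimum of 1 FPKM and a 1.5-fold rule change only the call and leave the difference as it was.

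For the remaining catalytic subunit and the NFAT genes the intervals of the ratio included 1. Ppp3cb had a ratio of 0.998 (0.803 to 1.24), Nfatc1 1.11 (0.873 to 1.41), Nfatc2 0.842 (0.703 to 1.01), Nfatc3 0.918 (0.713 to 1.18) and Nfatc4 1.36 (0.954 to 1.95). A difference of the size seen for Rcan1 lies outside each of these intervals. Myoz2 had a ratio of 1.07 (0.997 to 1.15). Rcan3 was lower in banding, at 0.503 (0.322 to 0.776), on 35 and 60 reads and at under 1 FPKM in both libraries.

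**Figure D4:**
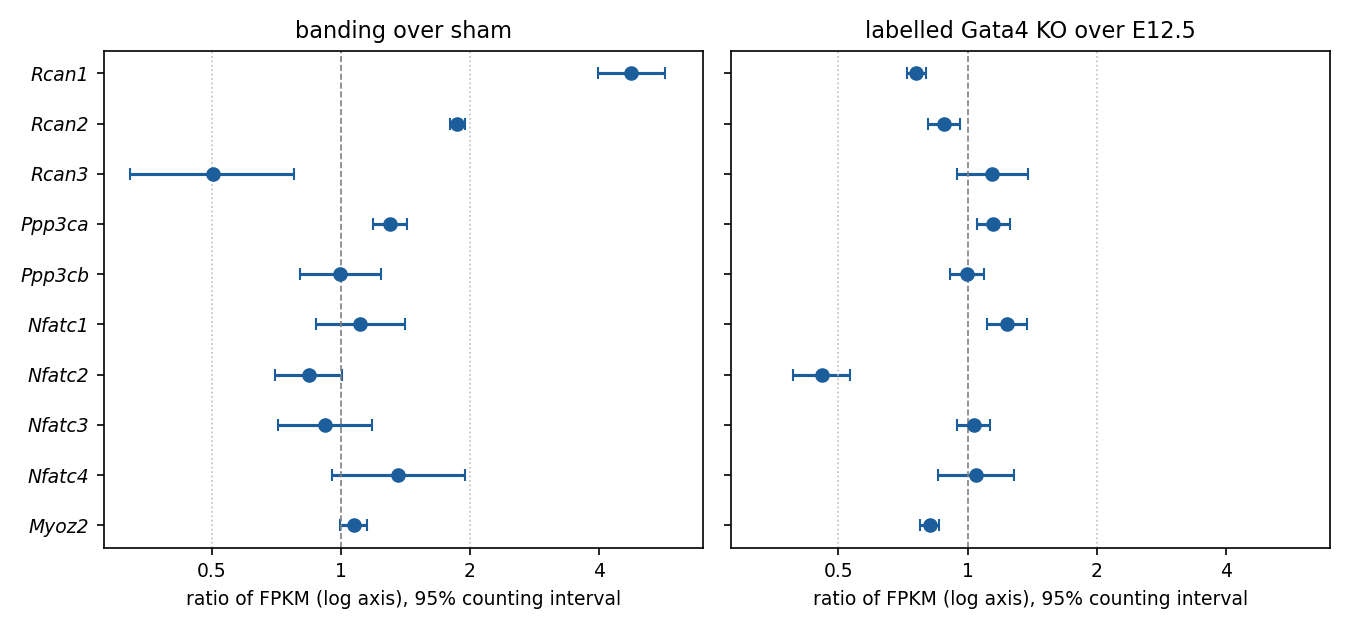
Ratio of FPKM for the 10 genes, banding over sham and the library labelled Gata4 KO over E12.5, on a log axis with 95% intervals from read counts, which cover counting error only. Rcan1 stands apart in banding at 4.76, and Nfatc2 is lowest in the labelled library at 0.458.

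Because the 3 calcipressins differed unequally, their make-up differed too. Rcan1 gave 12.9% of the summed Rcan FPKM in banding and 5.45% in sham, and the sum was 193 against 96.1 FPKM. Relative to Ppp3ca, Rcan1 stood at 0.625 (0.571 to 0.684) in banding and 0.171 (0.143 to 0.204) in sham, by the ratio of FPKM. The difference between banding and sham was therefore present within the libraries as well as across them.

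Marker sums of several cell types differed between the operated hearts. Fibroblast markers summed to 748 FPKM in banding and 283 in sham, with 6 of 7 measured markers higher by size, among them Col1a1 and Postn. Skeletal muscle markers, a list that holds Acta1, summed to 1109 and 464. Heart muscle markers summed to 25350 and 28747, smooth muscle markers to 126 and 127, endothelial markers to 236 and 243, and macrophage markers to 51.5 and 36.1. The part of these differences in the Rcan1 and Rcan2 values was not tested.

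Of the pathway lists, the hypertrophy genes were the only 1 with a member past the rule of size in banding. They held 4 of 6 measured genes higher: Nppa, the atrial natriuretic peptide, at 17.4-fold, Acta1, the skeletal actin, at 8.71-fold, Nppb at 8.14-fold and Ankrd1 at 3.67-fold. Myh7 and Vegfa, at 1.11-fold and 0.937-fold, did not pass. These genes were picked as known load-response genes and were already known to differ in these libraries. Ppp3r1 and Calm3 did not pass, with ratios of 1.23 and 1.27. None of 7 anchors and inhibitors passed, with Bcl2 at 1.74 and Akap5 at 1.5. None of 7 NFAT kinases passed, with Gsk3a at 1.44 (1.15 to 1.81), and none of 5 nuclear partners, with Mef2c at 1.27.

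E12.5 was next set against its counterpart labelled Gata4 KO, in which the Gata4 level was not lower. The values below compare 2 libraries, and the part of Gata4 loss in them was not tested. None of the 7 members measured at 5 FPKM passed the rule of size, which called 1.36% of 8218 genes higher and 0.742% lower, 2.11% in all. Nfatc2, too low for that rule, had the largest ratio, at 0.458 (0.392 to 0.532), which is 2.19-fold lower in the labelled library (1.88 to 2.55). Rcan1 and Myoz2 were lower, at 0.760 (0.722 to 0.80) and 0.816 (0.775 to 0.858), and Nfatc1 was higher, at 1.24 (1.11 to 1.38).

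The Nfatc2 value rests on 238 reads in the labelled library and 615 in E12.5. The adult libraries differed 1.4-fold in the same gene, so the difference is larger than that spread, but no replicate of either embryonic group was available to measure its own. Nfatc2 gave 9.29% of the summed Nfatc FPKM in the labelled library and 19.9% in E12.5, while Nfatc1 gave 36.5% and 28.9%. Rcan2 had a ratio of 0.883 (0.811 to 0.961) and Ppp3ca 1.15 (1.05 to 1.25). For Ppp3cb (0.997, 0.909 to 1.09), Nfatc3 (1.03, 0.947 to 1.13), Nfatc4 (1.05, 0.853 to 1.28) and Rcan3 (1.14, 0.943 to 1.38) the interval included 1.

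Red cell markers summed to 64667 FPKM in the labelled library and 21255 in E12.5, fibroblast markers to 341 and 156, endothelial and endocardial markers to 464 and 316, and heart muscle markers to 20146 and 31013. Smooth muscle markers summed to 1114 and 540, skeletal muscle markers to 356 and 195, and macrophage markers to 59.3 and 38.3. The T cell sums were 1.63 and 1.46, with Cd3d, Cd3e, Cd4 and Cd8a at 0 in the labelled library. The part of these sums in the values of Nfatc1, Nfatc2 and Myoz2 was not tested. In the pathway lists none of 9 anchors and inhibitors, 12 NFAT kinases and 8 nuclear partners passed the rule of size. Of 7 hypertrophy genes 2 did, Edn1, which encodes endothelin, at 3.65-fold and Acta1 at 2.28-fold. Junb, at 1.79, and Ppp3r1, at 0.793 (0.726 to 0.865), differed by less.

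Sham was set beside adult as the background of operated hearts without banding. Myoz2, Rcan1, Ppp3cb, Rcan2 and Nfatc3 were lower in sham, and Ppp3ca differed little on the scale as deposited. By limma over 11582 genes, 5 of the 10 genes fell and 0 rose, and 0 rose at an unadjusted p under 0.05. Over all genes 13.7% rose and 44.8% fell, 58.5% in all. The median difference of the members was -0.93 against -0.44 over all genes, with the same assumption about the lone sham library.

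Myoz2 fell by 3.89 (SE 0.08, adjusted p = 0.00269), from 10.51 ± 0.01 (SD, n = 2) to 6.61. Rcan1 fell by 2.78 (SE 0.28, adjusted p = 0.00581), from 5.42 ± 0.41 (SD, n = 2) to 2.64, and did not pass without the filter on low values (adjusted p = 0.0557). Ppp3cb fell by 1.98 (SE 0.12, adjusted p = 0.00286), Rcan2 fell by 1.66 (SE 0.09, adjusted p = 0.00278) and Nfatc3 fell by 1.37 (SE 0.14, adjusted p = 0.00615). All 5 also passed the rule of size, which called 35.6% of 6664 genes lower and 4.01% higher, 39.6% in all. By median-of-ratios scaling these 5 still passed limma as lower, the Rcan2 difference shrank to -0.98 and 3 of them passed by size.

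The scale matters most for the steady members. Under median-of-ratios scaling, which moved the median over all genes from -0.44 to 0.14, Ppp3ca was higher in sham by 0.53 (adjusted p = 0.0172). Scaled to reads on listed genes it was higher by 0.45 (adjusted p = 0.0280). As deposited it differed by -0.13 (SE 0.09, adjusted p = 0.30). Nfatc2 and Nfatc4 also passed as higher under both scalings, by 0.90 and 0.68 with median-of-ratios, while as deposited they differed by 0.38 (adjusted p = 0.199) and 0.31 (adjusted p = 0.114). T cell markers summed to 3.03 FPKM in sham and 3.17 in banding, with all 7 above 0, against 0.523 and 0.674 in adult. These are values near the floor. Cd3d gave 1.62 FPKM of the sham sum and was higher than adult by 1.15, on 26 reads against 3 and 3. Each of the other markers had 2 to 6 reads in sham, and Cd4 differed by -0.08. The part of T cell markers in the Nfatc2 values was not tested. Rcan3 (-0.12, adjusted p = 0.505) and Nfatc1 (-0.48, adjusted p = 0.0574) did not pass.

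Banding shared the low Myoz2, Ppp3cb and Nfatc3 levels with sham, so for these genes the operated hearts stood together and apart from adult. The ribosomal RNA precursor Rn45s moved with this split, at 12.96 in banding and 12.94 in sham against 8.65 and 8.94 in adult. Heart muscle markers summed to 28747 FPKM in sham against 48348 and 48426 in adult, and 6 of 8 fell. Fibroblast markers summed to 283 against 119 and 149, where 4 of 8 rose and 2 fell, and smooth muscle markers to 127 against 241 and 257, where 4 of 5 fell and 1 rose. Skeletal muscle markers summed to 464 against 2246 and 1846, of which Ckm gave 373 against 1954 and 1715. Endothelial markers summed to 243 against 352 and 362. The part of these sums in the member values was not tested. Whether operation, age or library preparation lies behind the difference between adult and the operated hearts cannot be told apart. As a comparison chosen after its values were seen, Myoz2 was set against Actn2, the Z-disc protein that it binds. The ratio of FPKM was 1.78 and 1.83 in adult, 0.495 (0.467 to 0.525) in sham, 0.412 (0.391 to 0.433) in banding, 0.383 in E12.5 and 0.385 in the labelled library. Myoz2 was thus lower than adult in the other 4 libraries also relative to this muscle gene. The size of such a ratio depends on the gene chosen. From adult to sham the listed heart muscle markers ranged from -0.05 for Tnni3 to -3.42 for Pln, with Actn2 at -2.03, against -3.89 for Myoz2.

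Most genes called in the pathway lists were lower in sham as well, on the scale as deposited, where 44.8% of all tested genes fell and 13.7% rose. Ppp3r1 fell by 2.30, Calm2 by 1.39 and Ppp3cc by 1.21. Of 10 anchors and inhibitors 5 fell and 1 rose. Akap6 fell by 2.19, Chp1 by 1.51, Fbxo32 by 1.4, Lmcd1 by 1.16 and Fkbp1a by 1.14, and Ppia rose by 0.59. Of 12 NFAT kinases 10 fell, among them Prkaca by 2.26 and Csnk1a1 by 2.16, with a median of -1.14 against -0.44 over all genes. Of 10 nuclear partners 8 fell, with Fos by 4.47, Jun by 2.70, Mef2a by 2.42 and Junb by 2.13. Of 7 hypertrophy genes Nppa and Ankrd1 rose, by 0.69 and 1.11, and Nppb and Myh7 fell, by 2.30 and 0.61. With median-of-ratios scaling 4 anchors and inhibitors, 5 kinases, 6 nuclear partners and 0 hypertrophy genes were lower. In the same order, 3, 0, 1 and 4 were higher.

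For 3 members the genes with the most similar pattern were found by Pearson's r of the level over the 6 libraries, among 7649 genes that reached 5 FPKM and ranged over at least 1. The libraries share depth and scaling, so these values are a description with no p. For Rcan1 they were Pfkp, a phosphofructokinase (r = 0.979), Pdzrn3 (0.977) and Nfil3 (0.974). Nfil3 stood at 0.94 in sham and 1.82 in banding, against 2.61 to 3.38 elsewhere. For Myoz2 they were Perp, Ptgr2 and Ogdh, and for Nfatc1 they were Dusp6, a phosphatase of the MAP kinase pathway, Klhdc10 and Rnf41. Ogdh, a subunit of the 2-oxoglutarate dehydrogenase, stood at 8.07 and 8.02 in adult and between 5.52 and 6.01 elsewhere. Dusp6 ranged from 1.71 in sham to 4.26 in the labelled library. Rcan1, whose adult replicates differ, had the lowest r of the 3 sets.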

How the data were processed

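Per the labels' protocols, libraries were made from pooled, poly(A)-selected RNA with random priming. The submitters' processing notes name build mm9 and, among other tools, TopHat 1.4 and HTSeq 0.5.3. They do not tie a tool to the expression values. The values deposited by the authors are log2(FPKM + 1), read from the values themselves, since low values stood in whole-number ratios on that scale only. From these ratios whole reads were recovered for 98043 of 98043 values above 0, within 1e-05 of a read, which also gave mapped reads and gene lengths. The pseudocount of 1 FPKM understates differences of low genes, and gene copies or overlapping genes can share reads.

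Adult against E12.5 and sham against adult were fitted with limma 3.58.1 (R 4.3.3, mean-variance trend, filter at 1 FPKM in any library), on all genes that passed. Comparisons of 1 library with 1 library used ratios and the rule of size. The fit was tested on simulated data in which every library varied like the adult pair. That simulation cannot test whether the single libraries do vary like it. Samples were grouped by title. The 10 members, the 6 pathway lists and the 9 marker lists were chosen with earlier results of these data known. The list of calcineurin subunits and calmodulins is not reported here in full, so no count is given for it. All members are named. Pathway genes are named where called, or otherwise from the most abundant. Akap5, Bcl2, Gsk3a, Mef2c, Junb, Ppp3r1, Nfil3, Ogdh and Dusp6 values were picked out after they were seen. Alternatives covered the pseudocount, filters, scaling, all 6 libraries in 1 fit and leaving out each adult library.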

Additional observations from a re-analysis of the deposited data

How the results depend on the processing

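Across the alternatives, 215 values and calls of the members kept their direction and side of the threshold, 12 calls were lost, 5 were gained, 5 differences changed sign and 3 values without a test moved. The 215 include the settings of 1 FPKM and 1.5-fold, which change the rule of size and leave differences as they were by design. They also include leaving out an adult library, where no test was run. Adult versus E12.5: the 4 members lower by limma became 2 with a pseudocount of 0.1 FPKM, 2 without the filter on low values and 1 with median-of-ratios scaling, and by size 0 to 1 were lower when each adult library was left out in turn, Rcan1 being lower without replicate 1. The share of calls that were higher moved from 32.6% to 44.7% by limma and from 29.8% to 44.5% by size with median-of-ratios scaling.

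Sham versus adult depended most on scaling. Of all genes 5191 fell by limma as deposited, and 3162 without the filter. With median-of-ratios scaling 3841 genes rose and 2810 fell by limma, 3 members rose (Ppp3ca, Nfatc2 and Nfatc4), and by size 1080 were higher and 1044 lower, with 3 members lower. Scaled to reads on listed genes the counts were 3346 and 3015 by limma, with 3 members higher, and 841 and 1146 by size. The share of calls that were higher moved from 23.3% by limma to 57.8% and 52.6%, and from 10.1% by size to 50.8% and 42.3%. Differences that changed sign under the 2 scalings were Rcan3 at 0.25 and 0.19, Ppp3ca at 0.53 and 0.45 and, with median-of-ratios only, Nfatc1 at 0.01. The cause was not tested.

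Banding versus sham had 51 genes lower by size, and 87 with median-of-ratios scaling. It had 200 higher and 107 lower at 1 FPKM, and 383 and 216 at 1.5-fold, where 2 members, Rcan1 and Rcan2, were higher. The library labelled Gata4 KO had 61 genes lower than E12.5, and 105 at 1 FPKM, and at 1.5-fold 378 were higher and 297 lower. Leaving out each adult library in turn, genes higher and lower by size numbered 1466 to 1548 and 3404 to 3446 for adult versus E12.5, and 315 to 376 and 2587 to 2648 for sham versus adult. The edgeR alternative was not run, because the deposited unit is a log2 value. No paired analysis was possible because only adult has more than 1 library. At this depth Nfatc4 and Rcan3, with 35 to 226 reads, have the widest counting intervals.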

Other observations

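Calcium channels and release receptors, whose calcium can reach calcineurin, differed by age in both directions. Of 9 genes tested from a list of 12, 3 rose and 2 fell from E12.5 to adult by limma, with a median of 0.35 against -0.51 over all genes. The shares over all tested genes were 23.4% risen and 48.4% fallen, 71.8% in all. Cacna1h, a T-type channel, had levels of 3.50 at E12.5 and 3.42 in its counterpart labelled Gata4 KO, and of 0.32 and 0.19 in adult, 0.29 in banding and 0.35 in sham. It fell by 3.25 (SE 0.11, adjusted p = 0.00398), and both embryonic libraries lay above the other 4. Orai1, the pore of store-operated calcium entry, fell by 1.74 (SE 0.11, adjusted p = 0.00609), from 3.06 to 1.32 ± 0.01 (SD, n = 2). Cacna1c, the L-type channel of heart muscle, rose by 0.78 (SE 0.09, adjusted p = 0.0135), the inositol trisphosphate receptor Itpr2 by 0.88 (SE 0.14, adjusted p = 0.0220) and Trpc1 by 0.71 (SE 0.09, adjusted p = 0.0163).

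In the operated hearts none of 4 measured genes of this list passed the rule of size. Cacna1c was lower in banding than in sham, with a ratio of FPKM of 0.643 (0.608 to 0.680), as was Stim1, the calcium sensor of the store, at 0.730 (0.623 to 0.856). In the library labelled Gata4 KO, Itpr2 had a ratio of 1.57 (1.42 to 1.74) to E12.5 and Cacna1c one of 0.754 (0.714 to 0.796). From adult to sham 1 of 9 genes passed by limma, Trpc1, which fell by 1.13 (SE 0.14, adjusted p = 0.00823). Among all genes tested there, 13.7% rose and 44.8% fell. With median-of-ratios scaling, and scaled to reads on listed genes, Stim1, Orai1, Cacna1g, Itpr2 and Itpr3 passed as higher in sham, 5 of the 9. Under these scalings 3841 of 12044 and 3346 of 11746 tested genes were higher.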
